A study of Mus musculus with 58 samples.

Results

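Pdk4 and 9 genes of fatty acid use, 10 of the 55376 gene symbols counted, were followed in bone marrow hematopoietic stem cells (HSCs) of mice on 6 diets and in HSCs carrying knockdown constructs. The 10 genes were chosen by their function, with the RNA counts of old restricted and old ad libitum fed mice already known. In those counts Pdk4 was among the genes with the largest decreases, so for these 10 genes every value that rests on the old libraries' RNA is a description, given without a p. Pdk4 encodes a kinase that phosphorylates and inhibits pyruvate dehydrogenase, which limits the flow of pyruvate from glycolysis into the tricarboxylic acid cycle. Long-chain fatty acids enter mitochondria through the carnitine shuttle, where Cpt1a acts at the outer membrane and Cpt2 at the inner membrane. The acyl-CoA dehydrogenases of very long, long and medium chains (Acadvl, Acadl and Acadm) carry out the first step of beta-oxidation, and Hadha encodes a subunit of the trifunctional protein that carries out later steps. Ppard is a nuclear receptor that activates many of these genes, Lpl encodes the lipase that releases fatty acids from circulating triglycerides, and Ucp2 encodes a carrier of the mitochondrial inner membrane. Fasting is known to raise Pdk4 in muscle and liver, and both pyruvate dehydrogenase kinases and fatty acid oxidation are known for roles in keeping HSCs quiescent.

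For the diet experiments HSCs were sorted as LSK cells negative for CD34 and Flk2 and positive for CD150 from wild-type male C57BL/6 mice. At 24 to 26 months of age, the old mice had eaten ad libitum (OAL), been held on lifelong 40% caloric restriction (CR) since 3 to 4 months of age (OCR), or been returned to ad libitum food for 4 weeks after lifelong CR (OCRRF). Young mice of 3 to 4 months were fed ad libitum (YAL), restricted for 4 weeks, by 20% in the first week and by 40% in the other 3 (YCR), or refed for 4 weeks after that (YCRRF). In the transplant experiment HSCs of aged mice were infected with viruses and recovered from irradiated young female recipients, by another sort, as LSK cells that carried CD150 and CD45.2 but no CD48. One pair of groups carried a Kdr shRNA (KD) or its scramble (SCR), and the other carried the Kdr shRNA together with 1 of 2 Bmpr1a shRNAs (DKD) or both scrambles (DSCR). Kdr is the receptor of vascular endothelial growth factor and Bmpr1a is a type I receptor of bone morphogenetic proteins. There were 4 RNA libraries in each group except OCRRF, SCR and DSCR, which had 2. HSCs of the old groups also gave the libraries used here of chromatin accessibility (ATAC-seq), 4 of OCR and 2 of OCRRF, 2 OCR libraries for each of the histone marks H3K4me3 and H3K27me3, and 2 libraries each of OAL, OCR and OCRRF for the transcription factor PU.1. The ATAC-seq libraries (4) and histone libraries (2 per mark) of OAL that the study also made were not analysed here.

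The RNA libraries held 30.2 to 33.8 M (mega) counts in OAL, 28.0 to 34.4 in OCR, 23.5 to 29.2 in OCRRF, 17.5 to 35.7 in YAL, 17.2 to 31.9 in YCR and 11.1 to 36.6 in YCRRF. The transplant libraries held 37.5 to 41.6 M counts in SCR, 39.0 to 44.8 in KD, 38.2 to 40.6 in DSCR and 35.7 to 39.9 in DKD. All 8 HSC markers were detected in every group, with Kit the most abundant. They summed to between 2768 (DKD) and 4572 (YCRRF) counts per M counts (CPM) as group means. CPM values of genes and markers are scaled between libraries, so they differ from counts over the library total. In replicate 1 of YAL, 150 counts of Pdk4 in 17.45 M are given as 8.86 CPM. Old libraries had more genes with a count, 42071 to 46646, than young libraries, with 22209 to 33496, and transplant libraries, with 23453 to 25447. They also held more signal over 1971 olfactory and vomeronasal receptor genes, which are silent in most tissues. That sum was 553 to 788 CPM in OAL, 587 to 1313 in OCR and 1213 to 1553 in OCRRF, against 69.2 to 499 over the young groups and 23.0 to 44.1 in the transplants. The sources used here do not say whether old and young libraries were prepared together, so age cannot be told apart from a difference in preparation. All 10 genes passed the filter on low counts in every RNA comparison.

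Per kilobase of exon, Acadl was the most abundant of the 10 genes in OAL, at 101 reads per kilobase of exon and M reads (RPKM). Cpt1a followed at 44.6, Acadvl at 44.2, Acadm at 38.2, Ucp2 at 34.2, Cpt2 at 20.7 and Hadha at 10.2 RPKM. Lpl at 3.92, Pdk4 at 2.82 and Ppard at 0.749 RPKM were the least abundant. The enzymes of mitochondrial oxidation were thus all far above the kinase and the receptor in level. Acadvl shares 1151 exon bases, 42.9% of its exons, with Dvl2 on the other strand, and Ucp2 shares 305 (4.36%) with Dnajb13 and Hadha 75 (0.859%) with Garem2. Whether the counting used strand is not given in the sources used here, so these 3 genes, Acadvl above all, are uncertain.

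Pdk4 (ENSMUSG00000019577, chromosome 6, 5483351 to 5496309, minus strand, mm10) was low in every restricted library. In OAL it measured 8.30, 8.90, 8.73 and 13.7 CPM (9.90 ± 2.52, SD, n = 4), and in OCR 1.17, 1.70, 2.39 and 2.16 CPM (1.85 ± 0.539, n = 4). Every OCR library lay below every OAL library, and replicate 4 of OAL stood above the rest of its group. The 2 OCRRF libraries measured 13.1 and 7.89 CPM (10.5 ± 3.69, n = 2), overlapping OAL and above all of OCR. In the young mice Pdk4 was at 8.86, 11.3, 6.41 and 6.91 CPM in YAL (8.37 ± 2.22, n = 4). It was at 0, 3.31, 1.23 and 2.02 CPM in YCR (1.64 ± 1.39, n = 4), again with all restricted libraries below all ad libitum libraries. In YCRRF it was at 4.43, 1.97, 1.27 and 0 CPM (1.92 ± 1.86, n = 4), a range that overlaps YCR and lies wholly below YAL. The 0 in YCR came from a library of 30.8 M counts, in which 3 counts would be 0.0973 CPM. The 0 in YCRRF came from the shallowest library, in which 3 counts would be 0.27 CPM. These floors use the library totals without scaling and cover counting error only.

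**Figure D1:**
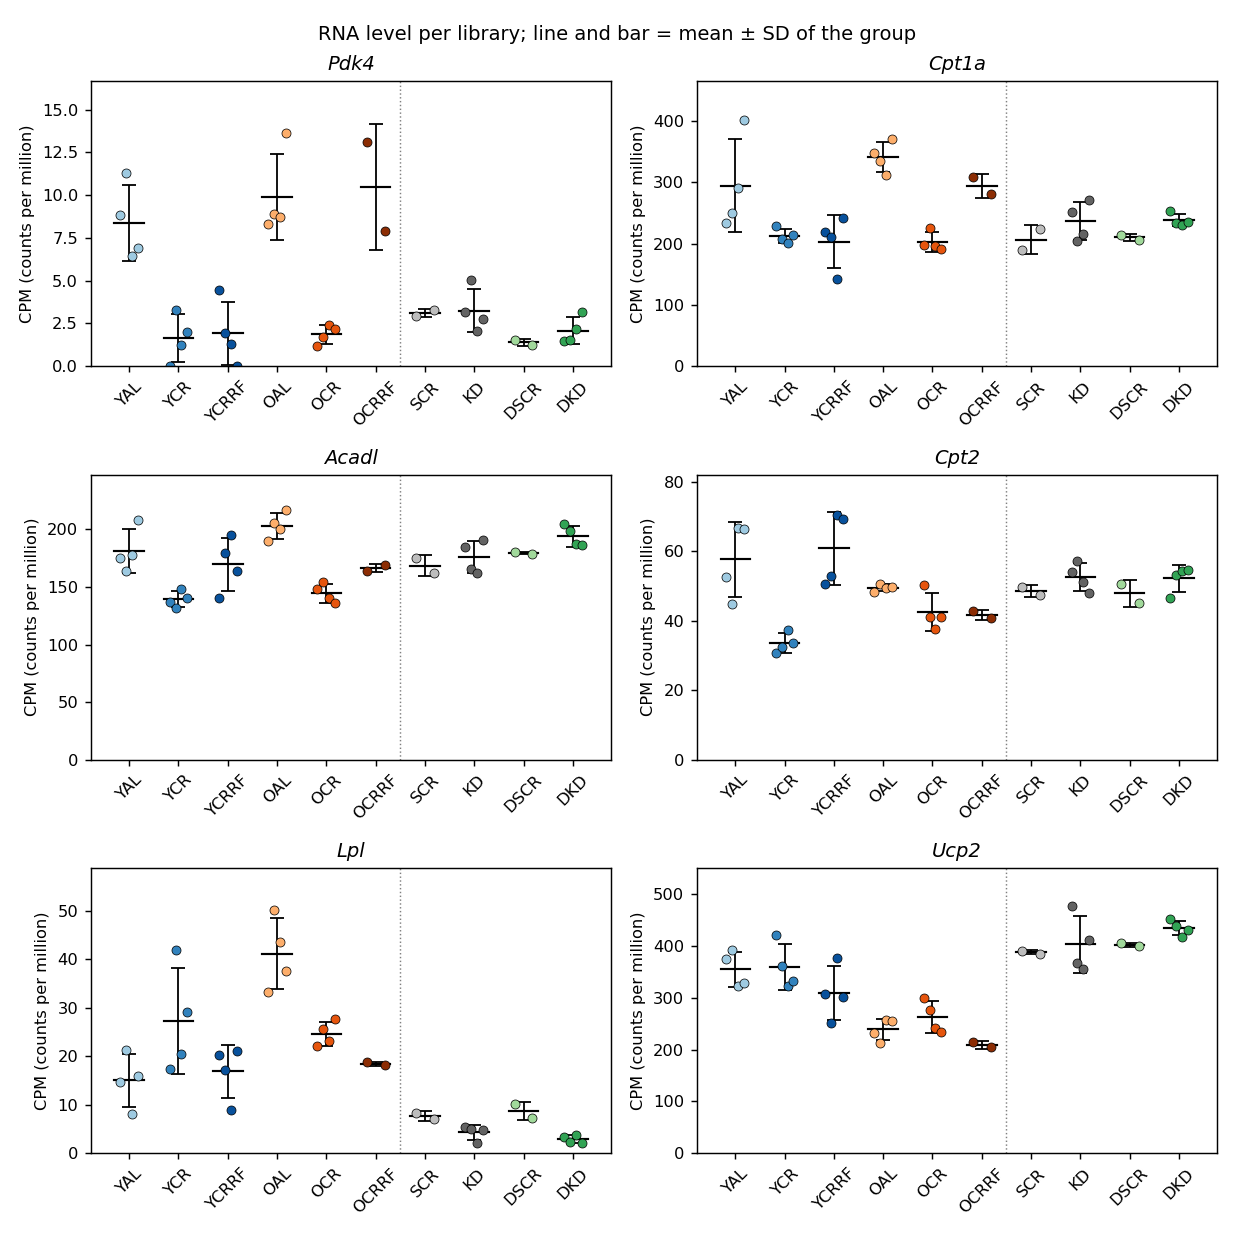
Levels of Pdk4, Cpt1a, Acadl, Cpt2, Lpl and Ucp2 in CPM (vertical axes, linear) in the 10 RNA groups (horizontal axes). Points are libraries and bars are means with SD; Pdk4 means lie between 1.64 and 1.92 in YCR, YCRRF and OCR and between 8.37 and 10.5 in YAL, OAL and OCRRF.

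The order of the group means of Pdk4 was OCRRF at 10.5, OAL at 9.90 and YAL at 8.37 CPM, then YCRRF at 1.92, OCR at 1.85 and YCR at 1.64 CPM. Neighbours within the upper 3 groups overlapped, as did neighbours within the lower 3, and only the step from YAL to YCRRF separated groups without overlap. By its means Cpt1a fell into the same 2 blocks of groups, OAL, YAL and OCRRF above YCR, YCRRF and OCR. Its blocks were not apart, since YAL and YCRRF overlapped. Lpl had another order, with OAL highest and YAL lowest.

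In OCR against OAL, which asks what lifelong restriction changes in old HSCs, 4 of the 10 genes passed the threshold, all lower. The threshold was an adjusted p under 0.05 and a fold change above 1.2 in edgeR, and it was passed by 5.57% of the 27150 genes tested, with 3.03% lower. Since the genes were chosen on this contrast, nothing is read from that count. The median log2 fold change of the 10 genes was -0.20, beside 0.02 over all genes. Pdk4 had a log2 fold change of -2.40 (SE 0.21), a 5.28-fold decrease.

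Of the carnitine shuttle, Cpt1a measured 347, 334, 311 and 371 CPM in OAL (341 ± 24.9, n = 4) and 197, 226, 196 and 191 CPM in OCR (203 ± 15.9, n = 4). The groups did not overlap, and the log2 fold change was -0.73 (SE 0.083). Cpt2 measured 48.1 to 50.7 CPM in OAL and 37.7 to 50.2 CPM in OCR, which overlap, with a log2 fold change of -0.20. Of the dehydrogenases, Acadl measured 190, 205, 200 and 217 CPM in OAL (203 ± 11.1, n = 4) and 148, 154, 140 and 136 CPM in OCR (144 ± 8.13, n = 4). No OCR library reached the lowest OAL library in Acadl, with a log2 fold change of -0.48 (SE 0.079). Acadm and Acadvl were also lower in all 4 OCR libraries than in all OAL libraries, with log2 fold changes of -0.20 and -0.21 that did not pass the threshold. Hadha, which acts after the dehydrogenases, overlapped between the groups with a log2 fold change of 0.10.

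Lpl, the lipase, measured 33.2, 50.1, 43.5 and 37.6 CPM in OAL (41.1 ± 7.33, n = 4) and 22.2, 25.5, 23.1 and 27.7 CPM in OCR (24.6 ± 2.49, n = 4). The 2 groups of Lpl values were apart, and the log2 fold change was -0.72 (SE 0.12). The receptor Ppard was at 5.63 ± 1.24 CPM in OAL and 5.03 ± 0.592 CPM in OCR (n = 4 each), a log2 fold change of -0.15. Ucp2 was at 239 ± 20.7 CPM in OAL and 263 ± 31.1 CPM in OCR (n = 4 each), a log2 fold change of 0.16, with overlapping groups. When the spread was shared over all 6 diet groups, Cpt1a and Acadl passed the threshold and Pdk4 and Lpl did not, at log2 fold changes of -2.41 and -0.74.

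The sum of the endothelial cell markers, nearly all of it Emcn, moved in the same direction as Pdk4, Cpt1a and Lpl in these libraries. The 3 markers, all detected, summed to 34.5, 29.5, 28.8 and 35.7 CPM in OAL and to 15.7, 20.1, 18.0 and 20.1 CPM in OCR. Emcn alone was at 29.9 CPM of a mean sum of 32.1 in OAL and at 16.6 of 18.5 in OCR. A move of the other markers is thus not shown, and the sum is not read as a measure of endothelial cells. In OCRRF they summed to 29.4 and 26.6 CPM. B and plasma cell markers were at 48.8, 2.57, 25.2 and 4.93 CPM in OAL, with Jchain on top, and at 4.02, 2.07, 2.91 and 3.30 CPM in OCR, and all 4 were detected. The sum of T and NK cell markers, 3 of 3 detected, moved the other way, at 12.2, 13.4, 11.5 and 11.3 CPM in OAL and 27.5, 23.3, 16.7 and 14.9 CPM in OCR. Nearly all of it was Nkg7, at 11.1 and 19.3 CPM. Mitochondrial genes held 1.37%, 1.42%, 1.36% and 1.55% of the counts in OAL and 1.29%, 1.14%, 1.22% and 1.24% in OCR, without overlap. The sort for the diet experiments excluded cells that bind antibodies to lineage markers, B220 of B cells among them. The part of these markers and shares in the differences was not tested. In sorted bulk samples, fewer cells of a type and less RNA per cell cannot be told apart.

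Refeeding of old restricted mice was read from OCRRF against OCR, in which 3.41% of 32577 genes passed the threshold and 0.694% did so as higher. The OCR libraries are those known when the genes were chosen, so which genes passed is a description here as well. Pdk4 and Cpt1a were the 2 of 10 genes that passed, both higher. Pdk4 had a log2 fold change of 2.45 (SE 0.26), a 5.47-fold difference. Cpt1a, at 308 and 280 CPM in OCRRF, lay above all 4 OCR libraries with a log2 fold change of 0.48 (SE 0.12). Acadl, at 164 and 169 CPM, also lay above all of OCR, with a log2 fold change of 0.15 that did not pass. Lpl at 18.7 and 18.1 CPM, Ucp2 at 215 and 204 CPM and Hadha at 84.5 and 85.8 CPM lay below all OCR libraries. Their log2 fold changes were -0.48, -0.39 and -0.21, and none of the 3 passed. Without replicate 1 of OCRRF only Pdk4 passed, without replicate 3 of OCR also Lpl and Ucp2 did, and without replicate 1 or 4 of OCR 1 of those 2 did. With the spread shared over all 6 diet groups neither Pdk4 nor Cpt1a passed. Skeletal muscle markers, 4 of 4 detected, moved with Pdk4 in this comparison, with Myh4 on top at 1.66 and 2.36 CPM. They were at 3.61, 2.41, 4.59 and 3.57 CPM in OCR and 5.41 and 5.55 CPM in OCRRF. In OAL, at values given below, these markers overlapped OCR, while Pdk4 was higher in OAL than in OCR. The endothelial sum (above), mostly Emcn, was also higher in both OCRRF libraries than in all OCR libraries. So were B and plasma cell markers, at 11.8 and 4.90 CPM with Ighm on top at 2.76 CPM. The T and NK cell sum was lower, at 6.06 and 14.3 CPM, through Nkg7. Nkg7 was at 8.63 CPM of a mean sum of 10.17 in OCRRF and at 19.28 of 20.6 in OCR, and the other markers were not lower as a sum. Macrophage markers were also lower, at 6.52 and 7.08 CPM against 9.56, 7.27, 7.69 and 8.39 CPM in OCR, with C1qb on top at 2.26 CPM. Mitochondrial genes held 1.53% and 1.38% of the counts in OCRRF, above all of OCR. The part of these differences in the Pdk4 and Cpt1a values was not tested.

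In OCRRF against OAL, the refed mice beside mice that were never restricted, 4.14% of 31816 genes passed the threshold, and of the 10 genes Acadl and Lpl did, both lower, again as a description. Lpl had a log2 fold change of -1.17 (SE 0.14), a 2.25-fold decrease, with both refed libraries below all OAL libraries. Acadl had a log2 fold change of -0.30 (SE 0.071) and no longer passed when any single library was left out. With the spread shared over all 6 diet groups 0 genes passed, so neither Lpl nor Acadl did. Pdk4 overlapped between these groups, with a log2 fold change of 0.08 (SE 0.22). In OCRRF, Pdk4 thus overlapped OAL, while Lpl lay below both OAL and OCR. HSC markers were lower in OCRRF, at 3610 and 3548 CPM against 4356, 4603, 4101 and 4032 CPM in OAL, with Kit on top at 1236 and 1588 CPM. Stromal markers were higher, at 7.26 and 8.58 CPM against 4.08, 3.14, 5.29 and 4.17 CPM, with Col1a1 on top at 3.30 and 1.72 CPM, and so were skeletal muscle markers, at values given above for OCRRF and below for OAL. The OCRRF libraries also held fewer counts than every OAL library and more genes with a count and more olfactory and vomeronasal receptor signal. The part of these differences in the Lpl and Acadl values was not tested.

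**Figure D2:**
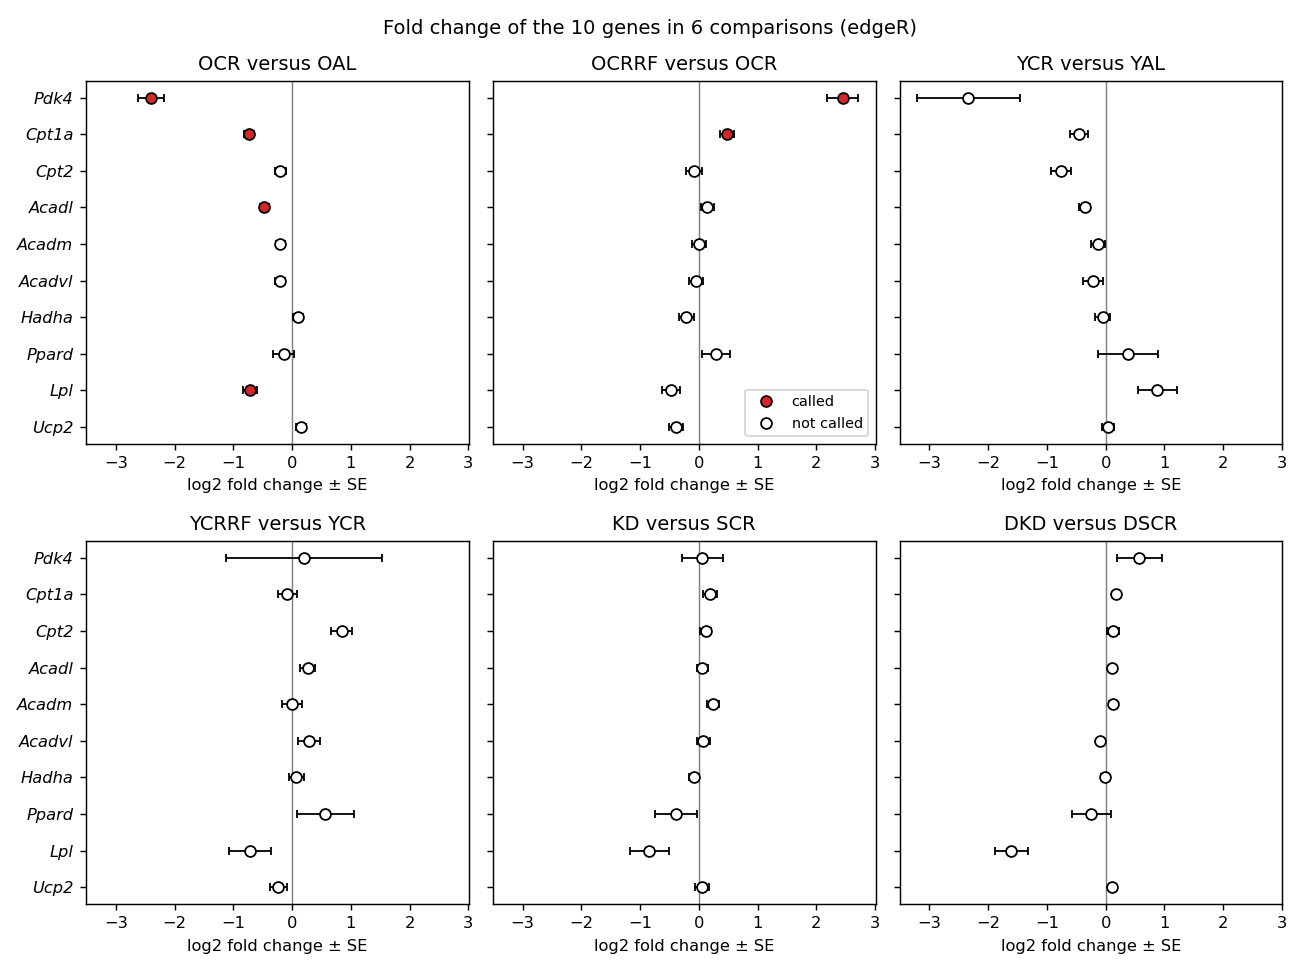
Log2 fold changes with SE (horizontal axes) of the 10 genes (vertical axes) in 6 comparisons, with genes past the threshold in red. Pdk4 lies at -2.40 in OCR against OAL, 2.45 in OCRRF against OCR and -2.33 in YCR against YAL, where no gene of the 10 passed.

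The young libraries were not used to choose the genes, so YCR against YAL was tested. Other earlier results of these data were known at that choice, which limits these p-values. With edgeR 0 of the 10 genes passed the threshold, which 0.257% of 18680 genes did. At an unadjusted p under 0.05 there were 5 of the 10, against 9.29% of all genes, and with DESeq2 2 of the 10 passed, Cpt2 and Acadl, against 2.42%. Pdk4 had a log2 fold change of -2.33 (SE 0.88, adjusted p = 0.415), with lower values in 4 of 4 restricted libraries. Without the library at 0 the log2 fold change was -1.91 (SE 0.45, adjusted p = 0.184), and the adjusted p ranged from 0.00615 with no filter on low counts to 0.592 over the alternatives. The median log2 fold change of the 10 genes was -0.17, beside 0.01 over all genes.

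Cpt2, the inner membrane enzyme of the shuttle, measured 52.6, 44.7, 66.6 and 66.5 CPM in YAL (57.6 ± 10.8, n = 4) and 30.7, 32.3, 37.4 and 33.6 CPM in YCR (33.5 ± 2.86, n = 4). The groups did not overlap, and the log2 fold change was -0.76 (SE 0.17, adjusted p = 0.108, 0.00134 to 0.291 over the alternatives). Cpt1a measured 234, 251, 291 and 402 CPM in YAL (295 ± 75.6, n = 4) and 228, 207, 200 and 213 CPM in YCR (212 ± 11.9, n = 4). The groups touched closely without overlapping, and the log2 fold change was -0.45 (SE 0.15, adjusted p = 0.346). Acadl measured 175, 164, 177 and 208 CPM in YAL (181 ± 18.8, n = 4) and 137, 131, 148 and 141 CPM in YCR (139 ± 6.98, n = 4). All 4 restricted libraries were lower, with a log2 fold change of -0.36 (SE 0.097, adjusted p = 0.210). With no filter on low counts Pdk4, Cpt1a and Cpt2 passed, and with the spread shared over all diet groups Cpt2 did. Under both settings more of all genes passed as well, with counts given in the last section.

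Lpl went the other way in young mice. It measured 14.7, 21.2, 8.11 and 16.0 CPM in YAL (15.0 ± 5.40, n = 4) and 17.3, 41.9, 20.5 and 29.1 CPM in YCR (27.2 ± 11.0, n = 4). The groups overlapped in part, and the log2 fold change was 0.88 (SE 0.34, adjusted p = 0.424). Acadm, Acadvl, Hadha, Ppard and Ucp2 overlapped between YAL and YCR with log2 fold changes from -0.22 to 0.38. B and plasma cell markers summed to 93.3, 26.4, 46.6 and 49.0 CPM in YAL and to 35.7, 538, 415 and 262 CPM in YCR, where Jchain led at 147 CPM and all 4 were detected. The YCR library with the highest sum was also the one with the highest Lpl, and the part of these markers in the values was not tested.

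After refeeding of young mice, in YCRRF against YCR, edgeR passed 0 of the 10 genes and 0.0102% of 19535 genes. At an unadjusted p under 0.05 there was 1 gene, Cpt2, against 7.27%, and DESeq2 also passed Cpt2 alone of the 10, against 1.37%. Cpt2 measured 50.6, 53.0, 70.4 and 69.2 CPM in YCRRF (60.8 ± 10.4, n = 4), above all 4 YCR libraries and overlapping YAL. Its log2 fold change was 0.84 (SE 0.18, adjusted p = 0.214, 0.00242 to 0.512 over the alternatives). Pdk4 had a log2 fold change of 0.20 (SE 1.33, adjusted p = 0.997), with overlapping groups. Against YAL, Pdk4 in YCRRF had a log2 fold change of -2.11 (SE 0.85, adjusted p = 0.995), lower in 4 of 4 libraries. Without the YCRRF library at 0 it was -1.72 (SE 0.53, adjusted p = 0.937).

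In YCRRF against YAL edgeR passed 0 genes of 19334 (0%) and so 0 of the 10. At an unadjusted p under 0.05 there were 2 of the 10, against 3.69%, and with DESeq2 0 of the 10, against 0.0776%. Cpt1a, at 218, 210, 142 and 242 CPM in YCRRF (203 ± 42.8, n = 4), had a log2 fold change of -0.53 (SE 0.20, adjusted p = 0.995), and its groups overlapped. In the library at 142 CPM, replicate 3, mitochondrial genes held 4.09% of the counts. They held 1.093%, 1.544% and 1.155% in replicates 1, 2 and 4. The part of this difference in the Cpt1a values was not tested. Macrophage markers, all 4 detected with C1qb on top, summed to 8.13, 5.96, 7.10 and 5.48 CPM in YCRRF, against 28.9, 14.4, 10.6 and 7.46 CPM in YAL and 24.9, 19.8, 15.5 and 19.0 CPM in YCR. B and plasma cell markers, all 4 detected with Ighm on top at 4.01 CPM, summed to 0.353 to 25.7 CPM over the 4 YCRRF libraries, below every YAL and every YCR library. Neutrophil markers were at 833 ± 549 CPM in YCRRF, 280 ± 254 CPM in YAL and 110 ± 155 CPM in YCR (n = 4 each). Their part in the Pdk4 and Cpt2 values was not tested.

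Old and young ad libitum fed mice were compared as a description, since the OAL counts were known. In OAL against YAL 14.8% of 23525 genes passed the threshold, and of the 10 genes Lpl passed as higher and Ucp2 as lower. Lpl had a log2 fold change of 1.47 (SE 0.25, 2.77-fold), with every OAL library above every YAL library. Ucp2 measured 231, 213, 256 and 255 CPM in OAL and 375, 392, 323 and 329 CPM in YAL (355 ± 34.0, n = 4), without overlap. The log2 fold change of Ucp2 was -0.56 (SE 0.088). Ppard differed by 0.61 (SE 0.42) with overlapping groups and did not pass. Pdk4 overlapped between the ages with a log2 fold change of 0.26. Without replicate 2 of YAL Cpt2 and Acadvl also passed, and without replicate 4 of YAL Cpt1a and Hadha did. Adipocyte markers moved with Lpl, at 2.38, 2.28, 2.44 and 1.98 CPM in OAL (5 of 5 detected) and 0.295, 0.535, 0.0594 and 0.219 CPM in YAL (4 of 5, Cfd at 0), with Lep on top at 0.801 and 0.107 CPM. Skeletal muscle markers, 4 of 4 detected, did so too, at 2.84, 2.66, 3.50 and 2.65 CPM in OAL and 1.95, 1.80, 0.386 and 2.30 CPM in YAL, with Myh4 on top in OAL at 1.14 CPM and Tnnt3 in YAL at 0.885 CPM. Adipocyte markers did not fall with Lpl among the old groups. They were at 1.65, 1.75, 4.13 and 2.64 CPM in OCR and 2.29 and 4.25 CPM in OCRRF, where Lpl was lower than in OAL. Old libraries also held more olfactory and vomeronasal receptor signal, as given above. The part of these markers and of this signal in the Lpl values was not tested.

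The responses to CR of old and young mice were set against each other in 1 fit of OCR, OAL, YCR and YAL, which passed 12 of 28328 genes (0.0424%). With an unadjusted p under 0.05 there were 8.93% of genes, and DESeq2 passed 0.642%. This fit holds the OCR and OAL counts known when the genes were chosen, so its counts for the 10 genes describe and do not test. With edgeR 0 of the 10 genes passed, with 2 at an unadjusted p under 0.05, and DESeq2 passed 1, Lpl. For Pdk4 the old log2 fold change minus the young one was -0.03 (SE 0.89). For Lpl it was -1.59 (SE 0.37), since Lpl was lower in OCR than in OAL and higher on average in YCR than in YAL. For Cpt2 it was 0.57, with the larger decrease in young mice.

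The rest of the pathway was read from 8 lists with 109 genes, of which the 10 genes are no part. The lists were chosen by function with earlier results of these data known, so counts and values of the old groups are given as a description, without a p. In OCR against OAL 14 of 107 tested genes passed the threshold, 2 higher and 12 lower, beside 5.57% of all genes, and the median log2 fold change of the lists was -0.03. By list, 4 of 14 PPAR target genes were lower, 3 of 17 of mitochondrial beta-oxidation, 2 of 13 of pyruvate dehydrogenase and its kinases, 1 of 13 of PPAR receptors and cofactors and 1 of 7 uncoupling proteins and related carriers. Fatty acid activation and the carnitine shuttle had 1 of 12 higher and 1 lower, lipid uptake and storage had 1 of 18 higher, and peroxisomal beta-oxidation had 0 of 13. When the spread was shared over all diet groups, 0 genes of the lists passed in this comparison, and leaving out single libraries gave 9 to 17.

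Angptl4, a secreted inhibitor of the lipase that Lpl encodes and a known PPAR target, measured 8.79, 9.63, 9.62 and 14.3 CPM in OAL and 4.34, 8.13, 5.23 and 4.92 CPM in OCR. Its libraries did not overlap, and the log2 fold change was -0.89 (SE 0.19). Ppargc1a, a coactivator of the PPAR receptors, measured 11.3, 8.55, 8.69 and 10.8 CPM in OAL and 5.13, 6.09, 5.88 and 5.70 CPM in OCR. It was lower in 4 of 4 libraries, with a log2 fold change of -0.77 (SE 0.15). Acot1 and Acot2, thioesterases that release free fatty acids from acyl-CoA, had log2 fold changes of -0.77 (SE 0.14) and -0.43 (SE 0.098). Slc25a20, the carrier that moves acylcarnitine between Cpt1a and Cpt2, was at 69.9 to 81.6 CPM in OAL and 51.5 to 59.0 CPM in OCR, a log2 fold change of -0.42 (SE 0.086). Acsl3, an acyl-CoA synthetase, was higher, with a log2 fold change of 0.37 (SE 0.090).

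In OCRRF against OCR 6 of 107 list genes passed, 2 higher and 4 lower, beside 3.41% of all genes. Ppargc1a was at 7.91 and 12.1 CPM in OCRRF (log2 fold change 0.75, SE 0.21) and Acot1 at 22.7 and 19.7 CPM (0.65, SE 0.17), both above all OCR libraries. The carrier Slc25a5 had a log2 fold change of -0.59 (SE 0.14) and the corepressor Nrip1 one of -0.50 (SE 0.12). Leaving out single libraries gave 1 to 14 list genes here. In OCRRF against OAL 6 of 107 passed, beside 4.14% of all genes, among them Lrp1 (log2 fold change 0.76), Pecr (-0.46), Hsd17b10 (-0.38) and Echs1 (-0.30), and without any single library 0 or 1 did. In OAL against YAL 19 of 105 passed, 4 higher and 15 lower, beside 14.8% of all genes, with 4 to 24 when single libraries were left out. Vldlr, a lipoprotein receptor, had a log2 fold change of 2.71 (SE 0.34, 6.55-fold) and Crot 0.28, while Pprc1 (-0.62) and Eci1 (-0.55) were lower.

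In YCR against YAL edgeR passed 1 of 98 list genes, beside 0.257% of 18680 genes, and that was Pdk1, another pyruvate dehydrogenase kinase. Pdk1 measured 152, 179, 164 and 109 CPM in YAL (151 ± 30.1, n = 4) and 90.8, 91.6, 76.2 and 80.7 CPM in YCR (84.8 ± 7.59, n = 4). All 4 restricted libraries were lower, with a log2 fold change of -0.81 (SE 0.14, adjusted p = 0.0483). That call was lost when any single library except replicate 4 of YAL was left out, with adjusted p from 0.0977 to 0.149, and with a replicate block (0.135). In YCRRF against YCR and against YAL, in both knockdowns and in the fits that set responses against each other, edgeR passed 0 list genes. DESeq2 passed 3 of 98 list genes in YCR against YAL, beside 2.42% of all genes, 3 of 97 in YCRRF against YCR, beside 1.37%, and 1 of 99 in DKD against DSCR, beside 1.65%.

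In the transplants the targeted genes were read first. Kdr measured 6.04 and 6.07 CPM in SCR and 1.93, 2.21, 3.28 and 2.03 CPM in KD, and 3.97 and 4.62 CPM in DSCR and 1.24, 0.555, 1.60 and 1.35 CPM in DKD. Kdr was lower in every knockdown library than in its scrambles, with log2 fold changes of -1.35 (SE 0.25, adjusted p = 0.247) and -1.86 (SE 0.37, adjusted p = 0.272). Bmpr1a measured 5.21 and 4.43 CPM in DSCR and 4.44, 0.656, 2.22 and 0.595 CPM in DKD, in the order of replicates 1-1 and 1-2 of the first shRNA and 2-1 and 2-2 of the second. Replicate 1-1 was at the level of the scrambles, and the log2 fold change was -1.29 (SE 0.72, adjusted p = 0.602). Bmpr1a also varied without its shRNA, at 8.29 and 4.37 CPM in SCR and 1.67, 3.73, 7.96 and 7.67 CPM in KD, so its counts are a weak check of the label. The Kdr counts follow the labels in all 8 knockdown libraries.

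In KD against SCR edgeR passed 0 of the 10 genes and 0.0149% of 20098 genes. At an unadjusted p under 0.05 there were 2 of the 10, against 8.9%, and with DESeq2 0, against 1.5%. Pdk4 was at 2.94 and 3.30 CPM in SCR and 3.19, 5.03, 2.03 and 2.77 CPM in KD. The groups overlapped, with a log2 fold change of 0.06 (SE 0.34, adjusted p = 0.971). Acadm was at 162 and 173 CPM in SCR and 183, 229, 197 and 182 CPM in KD, higher in 4 of 4 (log2 fold change 0.24, SE 0.10, adjusted p = 0.551). Lpl was at 8.34 and 6.97 CPM in SCR and 5.32, 4.91, 2.05 and 4.83 CPM in KD, lower in 4 of 4 (log2 fold change -0.84, SE 0.34, adjusted p = 0.527). KD and SCR also differed without overlap in HSC markers, at 2767, 3021, 3110 and 2711 CPM in KD and 3298 and 3499 CPM in SCR, 8 of 8 detected with Kit on top at 1453 and 1658 CPM. B and plasma cell markers, 4 of 4 detected, were at 18.0, 22.4, 9.47 and 4.93 CPM in KD and 1.80 and 2.79 CPM in SCR, with Ighm on top at 10.4 and 1.26 CPM. Mitochondrial genes held 0.644%, 0.440%, 0.524% and 0.721% of the counts in KD and 0.778% and 0.774% in SCR. The part of these differences in the Lpl and Acadm values was not tested.

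In DKD against DSCR edgeR passed 0 of the 10 genes and 0.00498% of 20072 genes. At an unadjusted p under 0.05 there were 2 of the 10, Cpt1a and Lpl, against 9.85%, and with DESeq2 1, Lpl, against 1.65%. Lpl was at 10.1 and 7.33 CPM in DSCR and 3.40, 2.27, 3.64 and 2.11 CPM in DKD. Every DKD library was below both scrambles, with a log2 fold change of -1.60 (SE 0.28, 3.04-fold, adjusted p = 0.230, 0.000302 to 0.951 over the alternatives), and the first and the second Bmpr1a shRNA alone gave -1.61 and -1.59. Cpt1a was at 214 and 206 CPM in DSCR and 253, 234, 231 and 235 CPM in DKD, higher in 4 of 4 (log2 fold change 0.18, SE 0.057, adjusted p = 0.371). Pdk4 was at 1.53 and 1.25 CPM in DSCR and 1.46, 1.51, 2.15 and 3.16 CPM in DKD, overlapping, with a log2 fold change of 0.58 (SE 0.38, adjusted p = 0.678). Acadl, Acadm and Ucp2 were higher and Acadvl lower in all 4 DKD libraries than in both scrambles, by at most 0.13 on the log2 scale. How often all genes separate in this way was not counted, here or in the other comparisons. Groups without overlap are thus a description of the libraries and not a result about these genes.

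Stromal cell markers moved with Lpl in this pair of groups. The 3 markers, all detected, summed to 10.8 and 11.6 CPM in DSCR and to 4.16, 1.26, 1.10 and 3.52 CPM in DKD, with Cxcl12 on top at 9.18 and 1.90 CPM. In SCR they summed to 2.12 and 2.44 CPM and in KD to 2.54, 2.07, 0.847 and 0.686 CPM, with Lepr at 0 in KD. Adipocyte markers also moved with Lpl, from 0.737 and 1.08 CPM in DSCR (3 of 5 detected) to 0.449, 0, 0.299 and 0 CPM in DKD (2 of 5). Adipoq was on top at 0.736 and 0.162 CPM, with Lep and Cidec at 0 in both groups and Cfd at 0 in DKD. Neutrophil markers had means of 971 CPM in SCR, 1659 in KD, 2772 in DSCR and 1153 in DKD, with wide spread. Fewer genes had a count in DKD, 23943 to 24604, than in DSCR, 24933 and 25149. The part of these differences in the Lpl values was not tested. Set against each other in 1 fit, the knockdown effects passed 0 of 21250 genes in edgeR (0%), with 3.58% at an unadjusted p under 0.05 and 0.0141% in DESeq2. Of the 10 genes 0 passed in edgeR or DESeq2 and 0 had an unadjusted p under 0.05, with a difference of -0.76 (SE 0.49) for Lpl and 0.51 for Pdk4.

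Of the other marker lists, as group means, adipocyte markers summed to 0.170 to 3.27 CPM, with Cfd at 0 in YAL, YCR, SCR and DKD, and skeletal muscle markers to 0.566 to 5.48 CPM, both of them tissues rich in Lpl and Pdk4. T and NK cell markers, nearly all of it Nkg7, were at 12.1 CPM in OAL, 20.6 in OCR and 106 to 163 in the transplants, erythroid markers at 32.7 to 151 CPM over the 10 groups and megakaryocyte markers at 38.8 to 101 CPM.

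The genes whose log2 CPM was most like that of Pdk4 over the 22 diet libraries, among 12326 genes with at least 5 CPM, were Abcc3 (Pearson r 0.779), Rapgef5 (0.769), Dhx40 (0.768), Zdhhc15 (0.758) and Wdr59 (0.755). Without the 2 libraries farthest from the median of Pdk4, replicate 1 of YCR and replicate 4 of YCRRF, which are those at 0, the values were 0.551, 0.415, 0.599, 0.219 and 0.329. Ranked by Spearman's rho, the 5 genes were Kdr (0.830), Ampd3 (0.806), Syngr1 (0.791), Palld (0.784) and Etfbkmt (0.777), none of them shared with the first list. Kdr itself was at 42.0 ± 2.38 CPM in OAL and 18.8 ± 5.14 CPM in OCR, and its r with Pdk4 was 0.960 over 10 old libraries and 0.372 over 12 young libraries. Of the other 9 genes Cpt1a was the nearest to Pdk4 (r 0.499, with 0.923 in old and 0.254 in young libraries), followed by Acadl (0.458). Hadha (-0.403) and Ucp2 (-0.385) were the farthest. These libraries fall into diet groups and differ in depth, and the correlations are a description.

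Chromatin was compared between OCR and OCRRF, with 131918 shared ATAC-seq peaks and 15.7 to 19.6 M counts in peaks per library. Of 42 peaks at the 10 genes, 12 at promoters, 39 could be tested and 0 passed in edgeR under 3 conditions, an adjusted p under 0.05, more than a 1.5-fold change and over 1.5 in mean log2 CPM. That threshold was passed by 0.221% of 123372 peaks. At an unadjusted p under 0.05 there were 5 of the 39, against 11.7%, with DESeq2 0, against 0.157%, and at an adjusted p under 0.05 alone 1, against 0.525%. That 1 was the promoter peak of Pdk4, chr6:5495900-5497119, which overlaps an exon of the gene. It measured 59.7, 60.7, 65.7 and 68.1 CPM in OCR (63.6 ± 4.03, n = 4) and 87.1 and 82.2 CPM in OCRRF. All OCR libraries were below both OCRRF libraries, the same direction as the RNA, with a log2 fold change of -0.41 (SE 0.065, adjusted p = 0.000543). Without replicate 1 of OCRRF the adjusted p was 0.0525, and over the other alternatives it was 2.62e-05 to 0.00661.

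All 9 peaks of Cpt1a were lower in OCR, with log2 fold changes of -0.53 to -0.08, and 3 had an unadjusted p under 0.05. The one with the lowest p, in an intron at chr19:3325088-3325806, measured 17.1, 17.3, 18.0 and 17.4 CPM in OCR (17.4 ± 0.401, n = 4) and 26.0 and 21.0 CPM in OCRRF. Its groups did not overlap, with a log2 fold change of -0.43 (SE 0.11, adjusted p = 0.0515, 0.0467 to 0.540 over the alternatives). The peak at the promoter of Cpt1a was at 63.7 and 67.4 CPM on average, a log2 fold change of -0.08. The remaining peak with an unadjusted p under 0.05 lay in an intron of Ppard, chr17:28270109-28270602 (log2 fold change -0.74, adjusted p = 0.291).

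**Figure D3:**
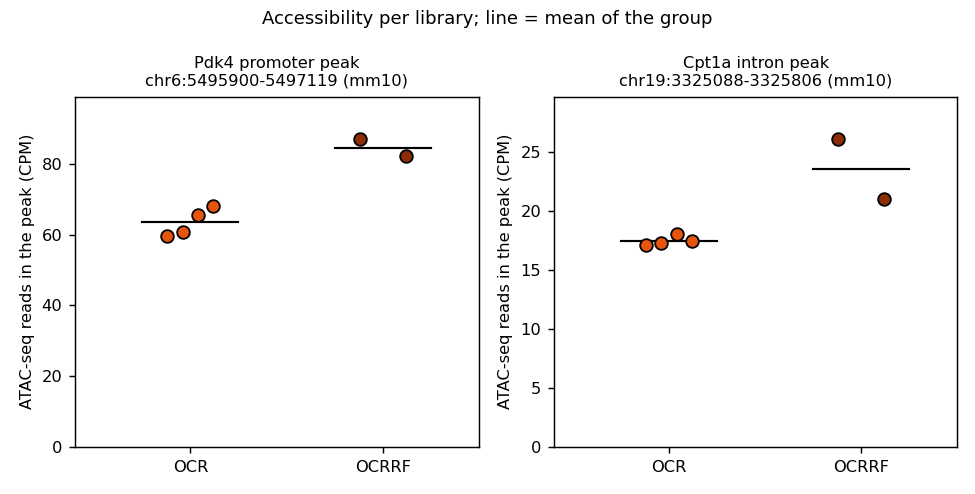
ATAC-seq CPM (vertical axes, linear) of the Pdk4 promoter peak and a Cpt1a intron peak in OCR and OCRRF libraries (horizontal axes), with points for libraries and lines for means. At the Pdk4 promoter OCR spans 59.7 to 68.1 and OCRRF 82.2 to 87.1.

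The promoter of Pdk4 is shown because this peak covers it. The window runs from 250 bases before to 50 after the transcript start, chr6:5496229-5496528 on the minus strand of GRCm38.p6 (the mm10 assembly) as RefSeq gives it, with 60.7% G and C and 12 CpG pairs. Capitals mark ATTGG, the reverse complement of CCAAT, at bases 120 to 124.
Pdk4 promoter: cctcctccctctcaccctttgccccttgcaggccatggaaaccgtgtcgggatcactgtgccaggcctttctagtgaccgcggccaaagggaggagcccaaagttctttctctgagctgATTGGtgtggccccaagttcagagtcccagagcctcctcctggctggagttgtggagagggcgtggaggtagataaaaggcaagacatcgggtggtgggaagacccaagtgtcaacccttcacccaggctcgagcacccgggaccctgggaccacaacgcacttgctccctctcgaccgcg
Both strands of the 9 of 10 promoters with an entry were searched for AGGTCA and its direct repeat with 1 base between (letters of nuclear receptor sites), GTAAACA (forkhead factors), GAGGAA (PU.1), CCAAT (NF-Y) and CACGTG (E-box). Of 32851 promoters of the same length, 16.3% hold AGGTCA, 0.0396% the direct repeat, 3.65% GTAAACA, 28.3% GAGGAA, 37.4% CCAAT and 7.15% CACGTG. The Pdk4 window held CCAAT alone of these. The Cpt1a window, chr19:3323051-3323350 on the plus strand, held AGGTCA as its reverse complement at bases 157 to 162 and CCAAT at bases 232 to 236, both in capitals.
Cpt1a promoter: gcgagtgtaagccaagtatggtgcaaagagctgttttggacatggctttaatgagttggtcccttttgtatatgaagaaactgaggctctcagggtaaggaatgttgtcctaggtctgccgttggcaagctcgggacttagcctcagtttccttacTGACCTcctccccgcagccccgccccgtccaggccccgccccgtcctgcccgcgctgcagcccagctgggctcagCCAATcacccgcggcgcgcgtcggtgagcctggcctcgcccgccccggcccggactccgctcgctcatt
AGGTCA was also in the windows of Acadm and Acadvl, and GAGGAA and CCAAT in that of Ppard. Such matches are a description of letters and not of binding.

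PU.1, a transcription factor of blood cells, had peaks called by library, 3046 and 2900 in OAL, 5464 and 3852 in OCR and 2817 and 2262 in OCRRF. Peaks with a summit within 10 kb of a transcript start or in the gene lay at 4 of the 10 genes and none at Pdk4 or Lpl. By the same rule 20.3% of 21701 protein-coding genes had one in any library, and 29.7% of the 11029 with a mean of at least 5 CPM in the old libraries, and the difference was not tested. Cpt1a had a peak in 6 of 6 libraries, with summits from 3321819 to 3321846 on chromosome 19, 1439 to 1466 bases before its transcript start and outside the gene. The fold enrichment was 15.6 and 18.8 in OAL, 19.1 and 20.4 in OCR and 20.4 and 15.5 in OCRRF, so the 3 diets overlapped. The summits lie in the Cpt1a promoter ATAC-seq peak, chr19:3321495-3323583. The 201 bases around the middle summit, chr19:3321734-3321934 on the plus strand, held 1 GAGGAA, in capitals, with its centre 1.5 bases from the summit, as 61.4% to 64.9% of all summit windows of the 6 libraries held the motif.
Cpt1a PU.1 summit: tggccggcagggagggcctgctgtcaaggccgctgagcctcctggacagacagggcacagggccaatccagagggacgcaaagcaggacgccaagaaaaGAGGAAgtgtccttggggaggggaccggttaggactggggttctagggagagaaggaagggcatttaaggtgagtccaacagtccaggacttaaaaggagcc
Acadm had a peak in 5 of 6 libraries, in an intron 615 to 656 bases from its start, with a fold enrichment of 5.91 to 8.61 and no GAGGAA in its window. Ucp2 had one in 3 of 6 libraries, both of OAL and 1 of OCR, and Cpt2 in 1 of OCR. Peak numbers differ between libraries, and the antibody may differ between replicates 1 and 2, so presence was not compared between diets.

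Histone marks were read here from OCR files only, as a mean signal per base downstream of transcript starts, in windows of 750 bases for H3K4me3, a mark of active promoters, and 2000 bases for H3K27me3, a mark of Polycomb repression. For H3K4me3 Cpt1a stood at the 93.3 and 93.9 percentile of 31552 promoter windows in the 2 replicates and Pdk4 near the middle, at 51.4 and 51.3. The other 8 genes lay between 60.1 and 87.3. For H3K27me3 Lpl was the highest, at a signal of 1.01 and 1.73 (percentiles 79.7 and 86.2), and Pdk4 was at 57.6 and 51.9. The remaining 8 lay between 5.52 and 49.2. The gene with the lowest H3K4me3 of the 10 was thus the one with the largest log2 fold change in RNA between OCR and OAL, as a description of 1 gene. In CPM the difference was larger for Cpt1a, the gene with the highest H3K4me3, at 341 in OAL and 203 in OCR.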

How the data were processed

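The authors trimmed RNA reads with cutadapt, aligned them to mm10 with STAR and deposited featureCounts counts per gene of each library. For ATAC-seq the authors aligned reads with BWA, removed duplicates and deposited counts in shared consensus peaks. Histone mark files hold a signal that the authors summed and averaged per base in a window after each transcript start, scaled to a fixed number of reads by their methods. Peaks of PU.1 come from MACS2 as run by the authors, 1 library at a time, and the deposited files give a score, a fold enrichment, the −log10 of p and of q and the offset of the summit. Tool names come from the submitters' notes and the study's methods. How counting treated strand and multi-mapping reads is not given in the sources used here. Depth per region is unknown for the histone and PU.1 values.

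From the counts, every comparison had its own fit of the groups it names, in R 4.3.3 with edgeR 4.0.16 (filterByExpr, TMM, glmQLFit, glmQLFTest, two-sided), with Benjamini-Hochberg adjustment over all genes or peaks tested. SEs come from the size of the log2 fold change over the root of F. Log2 CPM used a prior count of 2. Groups and replicate numbers came from the labels. Legends of the study count the RNA libraries of the diet groups as mice. For biological replicates the study's reporting summary refers to the legends, and a legend names Kdr knockdown mice. Neither labels nor legends state that each transplant or ATAC-seq library came from a separate animal. There p-values measure the spread between libraries, part of which may be technical. No 2 RNA libraries held identical counts. The self-test on simulated counts changed 200 genes. Alternatives were DESeq2 1.42.0, its size factors in edgeR, TMM factors from genes with at least 5 CPM, no filter, at least 10 counts in every library, an adjusted p alone, a replicate block, 1 fit of all diet or all transplant groups, 1 Bmpr1a shRNA at a time, and each library left out. Tables and figures were made with Python 3.11.15, pandas 2.3.3, numpy 2.4.6 and matplotlib 3.10.9.

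The members, the 8 pathway lists and the 11 marker lists were chosen with earlier results of these data known. This limit also holds for p-values of list genes in the young and transplant groups. Pathway genes named are those past the threshold whose mean reached 5 CPM and whose changes were largest, at most 5 in each direction in OCR against OAL and YCR against YAL and at most 3 elsewhere, and some genes that meet this are not reported here. Genes most like Pdk4 are the 5 with the highest Pearson r. Exon lengths and gene positions are from GENCODE M21, promoters from RefSeq. Samples without a file here (8 of 58, ATAC-seq and histone marks of OAL) were not analysed here.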

Additional observations from a re-analysis of the deposited data

Results flagged for a closer look

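In 12 of 135 groups of 4 libraries, 1 library lay far from the rest by Dixon's criterion, where chance gives about 1 in 20 (6.8 groups). Among the 10 genes, Pdk4 was at 13.7 CPM in replicate 4 of OAL against 8.30 to 8.90 CPM in the others. Cpt2 was at 46.5 CPM in replicate 1-1 of DKD against 53.2 to 54.5 CPM, and Acadvl at 181 CPM in replicate 2 of KD against 139 to 146 CPM. Ppard was at 8.23 CPM in replicate 3 of YCR against 3.12 to 3.90 CPM, and Lpl at 2.05 CPM in replicate 3 of KD against 4.83 to 5.32 CPM. Of other named genes, Kdr was at 34.0 CPM in replicate 3 of YAL against 20.3 to 22.0 CPM, Angptl4 at 14.3 CPM in replicate 4 of OAL against 8.79 to 9.63 CPM, and Acot1 at 15.8 CPM in replicate 1 of OCR against 11.8 to 12.4 CPM. Nrip1 was at 298 CPM in replicate 3 of OCR against 352 to 362 CPM, and Echs1 at 83.8 CPM in replicate 2 of OAL against 78.6 to 79.4 CPM. Replicate 4 of YCRRF held 11.1 M counts against 33.4 to 36.6 M in the others, and it is 1 of the 2 libraries with no Pdk4 count. In ATAC-seq the second promoter peak of Ppard (start 28233316) was at 1.91 CPM in replicate 4 of OCR against 2.45 to 2.49 CPM.

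Of 40 pairs of responses looked at for opposite directions, 1 was flagged, that of Lpl. Other pairs of opposite sign were not flagged. Among them, in OCR against OAL and in YCR against YAL, were Hadha (log2 fold changes 0.10 and -0.05) and Ppard (-0.15 and 0.38). Lpl fell by 16.5 CPM from OAL to OCR and was 12.2 CPM higher in YCR than in YAL, a difference of -28.7 CPM between the responses, and this difference in CPM was not tested. The fit of both responses gave a log2 difference of -1.59 (SE 0.37) for Lpl, which passed in DESeq2 and not in edgeR.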

How the results depend on the processing

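Of 1806 log2 fold changes of the 10 genes under alternatives, 1725 stayed on their side of the threshold, within 1 SE of the main value where neither passed. Another 16 fell below the threshold, 32 passed it and 33 moved by more than 1 SE or were tested only there. Among values that passed in the main fit or the alternative, 0 reversed. Direction was not checked where neither passed. For pathway genes and knockdown targets 313 of 394 stayed and 75 lost their call, and for accessibility 46 of 50 stayed. The counts of genes passing among the 10 changed as follows, and the cause was not tested. In OCR against OAL (4), the fit of all diet groups gave 2. In OCRRF against OCR (2), DESeq2 gave 4, the fit of all diet groups 0, and leaving out single libraries 1 to 4, where a lone library left in OCRRF, SCR or DSCR is assumed to vary like its comparison group. In OCRRF against OAL (2), DESeq2 and its size factors gave 5 each, TMM factors from genes with at least 5 CPM 1, at least 10 counts in every library 1, the fit of all diet groups 0 and each library left out 1. In OAL against YAL (2), libraries left out gave 2 to 4. In YCR against YAL (0 with edgeR, 5 at an unadjusted p under 0.05), DESeq2 gave 2, no filter 3 and the fit of all diet groups 1. In YCRRF against YCR (0 with edgeR, 1 unadjusted), each of these 3 gave 1. In DKD against DSCR (0 with edgeR, 2 unadjusted) DESeq2 gave 1, and in the old and young responses compared (0 with edgeR, 2 unadjusted) DESeq2 and no filter gave 1 each. For accessibility (0 with edgeR, 5 unadjusted) an adjusted p alone, chosen after seeing the data, gave 1. The fit of all transplant groups is already the main one for the knockdown effects compared.

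Same-numbered libraries of OCR and OAL correlated at -0.143 to 0.082 in their deviations, and in no comparison did every pair exceed 0.1. In KD against SCR and in DKD against DSCR 1 pair did. With few libraries in a group, deviations from the group mean depend on each other. This check thus cannot exclude that the numbers pair the samples, and the main fits used no pairing. With the replicate block, genes passing among the 10 were 4 in OCR against OAL, 3 in OCRRF against OCR, where Ucp2 joined, 2 in OCRRF against OAL, 2 in OAL against YAL and 0 elsewhere. Over all genes the block moved the calls from 1110 to 3437 in OCRRF against OCR, 1316 to 2080 in OCRRF against OAL, 3486 to 1651 in OAL against YAL, 48 to 7 in YCR against YAL, 3 to 26 in KD against SCR, 12 to 3 in the old and young responses compared and 273 to 762 for accessibility. The call of Pdk1 was lost under it (adjusted p = 0.135).

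Calls over all genes also moved from 1511 to 212 in OCR against OAL, 1110 to 64 in OCRRF against OCR and 1316 to 0 in OCRRF against OAL with the fit of all diet groups, and from 1110 to 2297 and 1316 to 3835 in the latter pair with DESeq2. Without replicate 1 of OCRRF they fell to 352 and 38. With TMM factors from genes with at least 5 CPM the median over all genes of the log2 fold change moved from 0.11 to 0.24 in OCRRF against OCR, 0.12 to 0.26 in OCRRF against OAL and 0.05 to 0.16 in OAL against YAL. The share of higher among the calls then moved from 45.6% to 56.2% in OCR against OAL, 20.4% to 37.3%, 40.1% to 93.3% and 46.5% to 70.5%. In YCR against YAL calls rose from 48 to 452 with DESeq2, 368 with no filter, 98 with at least 10 counts and 201 with the fit of all diet groups. The log2 fold change of Pdk4 stayed within -2.54 to -2.18 in OCR against OAL and 1.99 to 2.82 in OCRRF against OCR. Pdk4 was under 4 CPM in all restricted libraries.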
